A study of Mus musculus with 6 samples.

Results

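Genes of interferon sensing, signalling and response were compared between arrays labelled CD98hc KO and arrays labelled WT, from cells that the labels describe as fibroblasts. The set was a fixed list of 47 mouse genes, made of 8 sensors and adaptors, 4 receptor chains, 5 transcription factors and 30 effector genes. Of these, 44 were measured among 17097 genes. For 43 the array annotation gave the listed symbol, and Tmem173 was found under its current symbol Sting1. Isg15, Bst2 and Ifi44 were not analysed here. The list was chosen with earlier results of these data known, so its shares below are not independent of these data.

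The labels describe the cells as fibroblasts derived from mouse embryonic stem cells, lacking CD98hc, the product of Slc3a2 and heavy chain of several amino acid transporters, in the CD98hc KO group and as wild type in the WT group. Both groups were grown in the same complete high-glucose medium with serum, and no interferon, virus or other stimulus is named in the labels or the methods. Each group had 3 Affymetrix arrays, with replicate numbers 1, 3 and 5. The sources do not say how many clones were used or whether the 3 RNAs came from separate cultures, and p-values therefore reflect only how far these arrays differ among themselves, a spread that may be technical.

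Type I interferons, such as IFN-β, bind a receptor made of IFNAR1 and IFNAR2, and the type II interferon IFN-γ binds one made of IFNGR1 and IFNGR2. Both act through JAK kinases and STAT proteins. STAT2 and IRF9 belong to the complex that binds the interferon-stimulated response element (ISRE), while IFN-γ acts through the gamma-activated site (GAS). Cytosolic and endosomal sensors of foreign nucleic acid induce the interferons themselves. Fibroblasts are classical responders to interferon, whereas pluripotent stem cells are known for a weak response.

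The labels were checked first. Slc3a2 had log2 values of 11.65, 11.57 and 11.54 on the KO-labelled arrays, against 10.64, 10.67 and 10.51 on the WT-labelled arrays, a log2 fold change of 0.98 (SE 0.0748, limma adjusted p = 0.00012), which goes against the KO label unless the single probe set lies outside the deleted part, and that is not known here. Groups are therefore called by their labels. The fibroblast label was also not borne out by the markers of the KO-labelled arrays. Of the pluripotency markers all 9 that were measured were higher on the KO-labelled arrays, with summed log2 values of 100.9 to 102.2 on the KO-labelled and 44.8 to 46.1 on the WT-labelled arrays. Of 10 fibroblast markers, 1 was higher and 7 were lower, with sums of 49.9 to 51.5 on the KO-labelled and 82.8 to 89.3 on the WT-labelled arrays. Pou5f1, the pluripotency factor OCT4, averaged 11.99 ± 0.07 on the KO-labelled and 4.76 ± 0.15 on the WT-labelled arrays (SD, n = 3 each), and the fibrillar collagen Col3a1 4.42 ± 0.33 on the KO-labelled and 11.31 ± 0.71 on the WT-labelled arrays (SD, n = 3 each). The part that these markers have in the results below was not tested, and in bulk RNA fewer cells of a type and less RNA per cell cannot be told apart. Of 10 leukocyte markers, 1 was higher (Cd3e, log2 fold change 0.33) and 1 lower (Cd14, −1.22), both named after their values were seen. The sums of the 10 were 49.4 to 50.5 on the KO-labelled and 49.2 to 50.7 on the WT-labelled arrays. Ptprc (CD45), the pan-leukocyte marker, had 3.67, 3.73 and 3.58 on the KO-labelled arrays, against 3.64, 3.95 and 3.66 on the WT-labelled arrays. Of 6 endothelial markers, 1 was higher and 0 were lower, with sums of 29.3 to 30.3 on the KO-labelled and 27.2 to 27.9 on the WT-labelled arrays.

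Interferon genes were more often lower than higher on the KO-labelled arrays. Of the 44 genes, 16 were lower (36.4%) and 2 were higher (4.55%) at an adjusted p under 0.05 from limma, and 26 did not pass. By this rule 41.9% of all 17097 genes passed, 19.2% lower and 22.6% higher. With a change over 2-fold required as well, 12 members were lower and 2 higher, against 10.1% and 9.27% of all genes. The 3 values of each group lay apart for 18 members with the KO-labelled arrays below and for 4 with them above, while for all genes this held for 23.4% and 28.1%. The median log2 fold change was −0.25 over the members and 0.02 over all genes.

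Values are RMA log2 expression values, in which a difference of 1 is a doubling of signal, and a fold change is the mean of the KO-labelled minus that of the WT-labelled arrays. The median over all probe sets was 5.73, and 23 control probe sets for nonspecific signal had a median of 4.23 (3.28 to 8.32). No detection calls were used here. Of the 44 members, 18 had means at or below 5.73 under both labels, as did 37.8% of all genes, and a signal near 4.23 understates the fold change. With 3 arrays a group, the smallest p that an exact permutation test allows is 0.1.

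**Figure D1:**
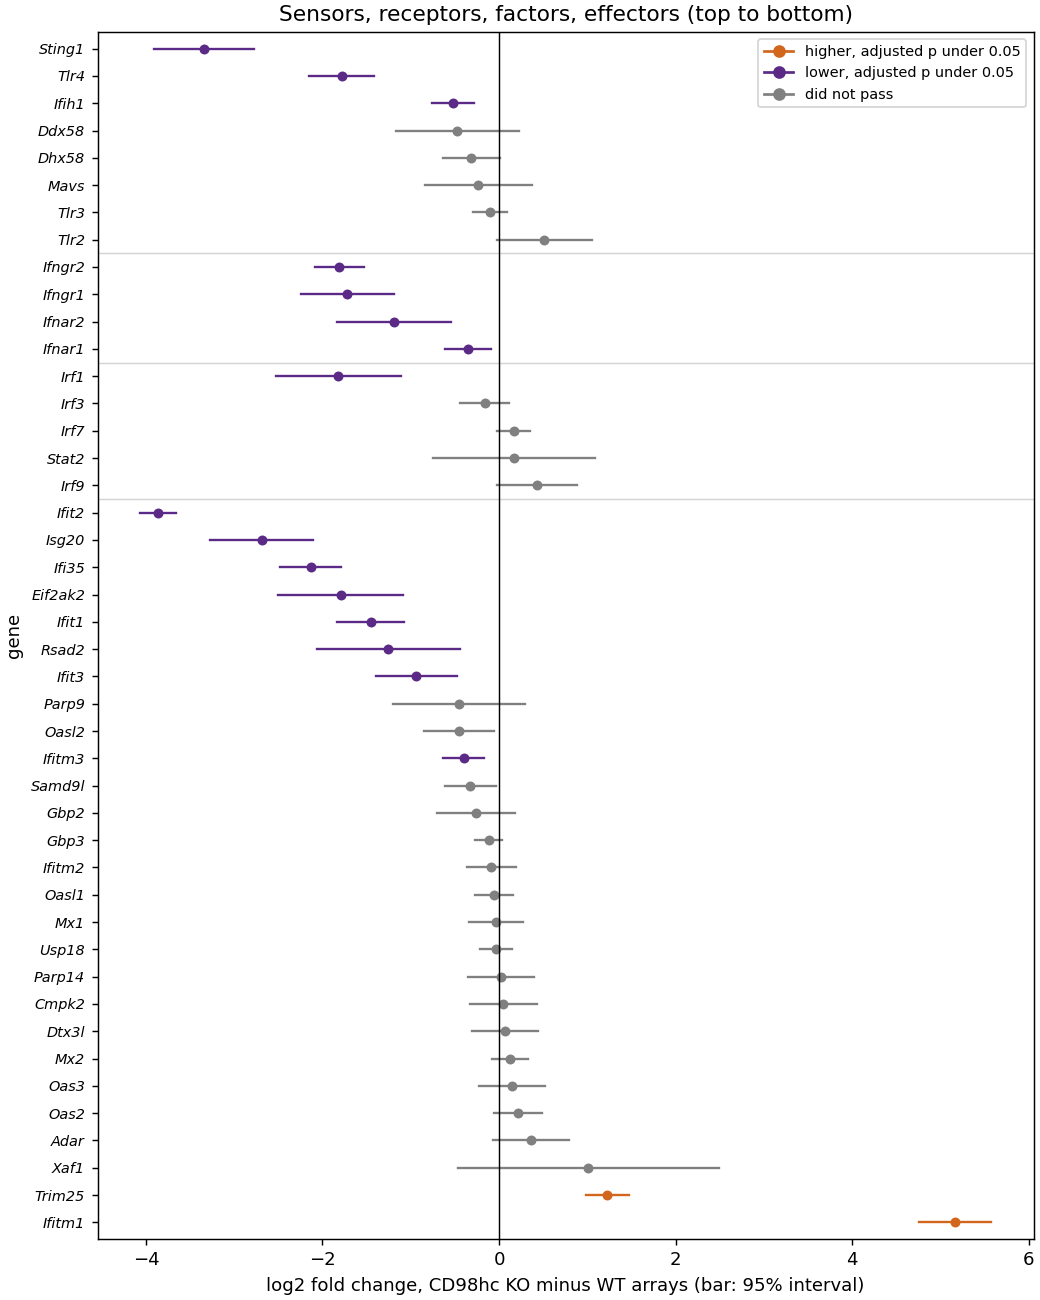
Log2 fold change (CD98hc KO minus WT arrays, horizontal axis) of the 44 measured interferon genes, one gene a row, in 4 blocks for sensors and adaptors, receptors, transcription factors and effectors, with bars for the 95% interval from limma. The 16 genes lower on the KO-labelled arrays reach −3.86 (Ifit2), and the 2 higher genes are Trim25 (1.22) and Ifitm1 (5.16).

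Among the 17 sensors, receptors and factors, 8 were lower (47.1%) and 0 higher at an adjusted p under 0.05 from limma, against 19.2% and 22.6% of all genes. Before adjustment the same 8 had an unadjusted limma p under 0.05 in the lower direction, and 0 in the higher. The share of all genes under this unadjusted limit was not counted. The median log2 fold change was −0.35. Without WT replicate 5, Tlr2 and Irf9 passed as higher, so that the count of higher genes became 2.

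Sting1 showed the largest decrease of this group. It encodes STING, the adaptor that relays cytosolic DNA sensing from the cyclic dinucleotide made by cGAS. Its log2 values were 4.91, 4.95 and 5.14 on the KO-labelled arrays, against 8.36, 7.86 and 8.82 on the WT-labelled arrays. The groups were far apart, with the KO-labelled arrays below the median of all probe sets and the WT-labelled arrays above it. The log2 fold change was −3.35 (SE 0.236, limma adjusted p = 8.9e-05), which is 10.2-fold lower signal under the KO label.

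Of the RNA sensors Ddx58 and Ifih1, only Ifih1 passed. Ddx58 encodes RIG-I, a cytosolic sensor of viral RNA, and had log2 values of 8.19, 7.91 and 8.66 on the KO-labelled arrays, against 8.23, 8.75 and 9.20 on the WT-labelled arrays. These groups overlapped, and the log2 fold change of −0.47 (limma adjusted p = 0.25) did not pass. Ifih1, which encodes the related sensor MDA5, was lower, with a log2 fold change of −0.52 (limma adjusted p = 0.0062) at levels between 4.31 and 5.07 on all 6 arrays, near nonspecific signal. Dhx58 (LGP2, a regulator of both sensors) and Mavs, their mitochondrial adaptor, did not pass, with log2 fold changes of −0.31 and −0.23 and 95% intervals of −0.64 to 0.01 and −0.84 to 0.37. Dhx58 passed as lower in 4 of the 14 refits that held it (adjusted p = 0.015 to 0.82 over the 14), among them those with the replicate block (0.033) and with replicate 3 as a covariate (0.016), and its brightest probe set gave 0.0580.

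Of the 3 Toll-like receptor genes only Tlr4 passed. Tlr4, the receptor of bacterial lipopolysaccharide, was lower, with a log2 fold change of −1.78 (SE 0.151, limma adjusted p = 0.00019), and its second probe set gave −1.05. The most variable probe set of Tlr4 had means of 3.81 on the KO-labelled and 5.59 on the WT-labelled arrays. Both are below the median of all probe sets. Tlr2, which recognises bacterial lipoproteins, had log2 values of 8.10, 7.50 and 7.60 on the KO-labelled arrays, against 7.04, 6.997 and 7.62 on the WT-labelled arrays, and the groups overlapped, with KO replicates 3 and 5 below WT replicate 5. Its log2 fold change of 0.51 (limma adjusted p = 0.12) did not pass, but without WT replicate 5 it was 0.71 with an adjusted p of 0.034 (0.034 to 0.3 over all 15 refits). Tlr3, the endosomal receptor of double-stranded RNA, had a log2 fold change of −0.10 with a 95% interval of −0.30 to 0.09.

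All 4 receptor chains were lower on the KO-labelled arrays, against 19.2% of all genes. For all 4 the KO-labelled arrays lay wholly below the WT-labelled arrays, against 23.4% of all genes. Ifngr2, the signalling chain of the IFN-γ receptor, had log2 values of 6.84, 6.45 and 6.72 on the KO-labelled arrays, against 8.49, 8.37 and 8.58 on the WT-labelled arrays. Its log2 fold change was −1.81 (SE 0.117, limma adjusted p = 6.4e-05). A second probe set gave −0.57 and did not pass (limma adjusted p = 0.055 over all probe sets). Ifngr1, the ligand-binding chain, had 7.50, 7.71 and 6.92 on the KO-labelled arrays, against 8.88, 9.10 and 9.29 on the WT-labelled arrays. That is a log2 fold change of −1.72 (SE 0.217, limma adjusted p = 0.001).

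The type I receptor chains were lower as well. Ifnar2 had a log2 fold change of −1.19 (SE 0.268, limma adjusted p = 0.012) at its most variable probe set, which had means of 4.28 on the KO-labelled and 5.47 on the WT-labelled arrays. Its brightest probe set had 8.19, 7.53 and 7.81 on the KO-labelled arrays, against 9.16, 8.86 and 9.24 on the WT-labelled arrays, a difference of −1.24. The first of these is of a type that can cross-hybridise (an x_at set), but all 3 probe sets of Ifnar2 were lower on each KO-labelled array than on any WT-labelled array. Ifnar1 had 8.11, 8.20 and 7.85 on the KO-labelled arrays, against 8.37, 8.35 and 8.50 on the WT-labelled arrays, a log2 fold change of −0.35 (limma adjusted p = 0.039). This call was lost when any 1 array except KO replicate 3 was left out (adjusted p = 0.072 to 0.11), although the log2 fold change stayed between −0.38 and −0.25 in those fits. It was lost in 9 of all 15 refits, also with the replicate block (0.071), within replicates 1 and 5 (0.057), after quantile normalisation (0.085) and with a variance trend (0.084). Ifnar2, Ifnar1 and Ifngr2 are neighbours on chromosome 16 in the RefSeq gene table. Here and below, neighbours are at most 5 places apart in the order of protein-coding genes, so other genes may lie between them.

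Of the 5 transcription factors only Irf1 passed. Irf1, a factor induced by IFN-γ that activates many immune genes, had log2 values of 7.42, 7.90 and 7.95 on the KO-labelled arrays, against 9.11, 9.43 and 10.20 on the WT-labelled arrays. The groups were more than 1 log2 unit apart, and WT replicate 5 was the highest array. The log2 fold change was −1.82 (SE 0.294, limma adjusted p = 0.003).

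The factors of the type I pathway did not pass. Stat2 had 7.99, 8.59 and 8.46 on the KO-labelled arrays, against 7.30, 8.58 and 8.65 on the WT-labelled arrays. WT replicate 1 lay below all other arrays, and the log2 fold change of 0.17 (limma adjusted p = 0.78) became −0.27 without it, so its direction rests on that array. Irf9, the DNA-binding partner of STAT2, had 7.27, 7.34 and 7.56 on the KO-labelled arrays, against 6.69, 6.83 and 7.37 on the WT-labelled arrays. Its log2 fold change was 0.43 (limma adjusted p = 0.12), and 0.63 with an adjusted p of 0.009 without WT replicate 5 (0.009 to 0.36 over all 15 refits). Irf3, which is activated by the sensors and switches on the IFN-β gene, had 7.62, 7.54 and 7.83 on the KO-labelled arrays, against 7.91, 7.66 and 7.93 on the WT-labelled arrays. It did not pass, with a log2 fold change of −0.17 and a 95% interval of −0.44 to 0.11. Irf7, the amplifier of type I interferon production, lay between 5.78 and 6.11 on all arrays, with a log2 fold change of 0.16 that did not pass.

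**Figure D2:**
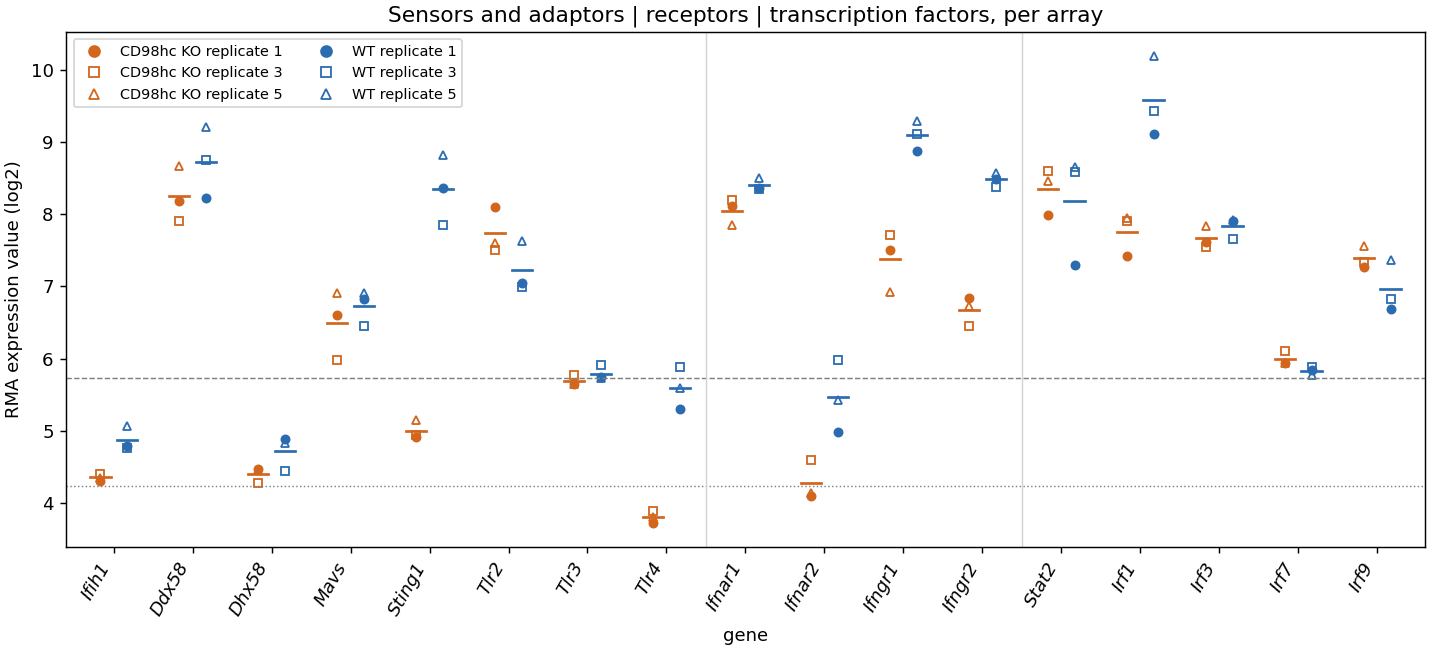
RMA log2 expression value (vertical axis) of 8 sensors and adaptors, 4 receptors and 5 transcription factors on each array, with the 3 CD98hc KO arrays in orange left of the 3 WT arrays in blue, symbols for replicates 1, 3 and 5 and bars for group means. Dashed and dotted lines mark the medians of all probe sets (5.73) and of nonspecific probe sets (4.23), and the widest gaps are those of Sting1, Irf1, Ifngr2, Tlr4 and Ifngr1.

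Promoter sequence was examined for both motifs. RefSeq promoters (GRCm38.p6, 250 bases before to 50 after a start site, 300 in all) were matched by symbol for 35 of the 44 members. The GAS was searched as TTCNNNGAA, which reads the same on both strands. It was found for 9 of the 35 members (25.7%), against 9.55% of all 27025 genes in the table and 8.3% of all promoters. Of the 9, 8 were lower on the KO-labelled arrays (of 14 lower members with a promoter), 1 did not pass (of 19) and 0 were higher (of 2). Such a split by call was not counted over all genes, so it has no background, and a link was not tested. The stretches of Irf1, of the type I receptor chains and of 3 effectors are shown as examples among the lower members (Ifngr1 and Ifngr2 had no match, and Eif2ak2 and Ifitm3 are lower members with a match whose stretches are not shown), with the motif in capitals and 10 flanking bases, or fewer at the window's edge, on each side.
Irf1: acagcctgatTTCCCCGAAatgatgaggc
Ifnar1: ggcgggggcgTTCACGGAAggggcggggc
Ifnar2: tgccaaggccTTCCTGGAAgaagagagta
Isg20: ctggggagggTTCTTGGAAtttttccttt
Ifi35: agaagcagaaTTCACAGAAatgaaagtgg
Ifit2: catgggagcTTCCTGGAAgaatggataa
They lie, in GRCm38.p6, at Irf1 chr11:53769914-53769942 (plus strand), Ifnar1 chr16:91485200-91485228 (plus strand), Ifnar2 chr16:91372559-91372587 (plus strand), Isg20 chr7:78913341-78913369 (plus strand), Ifi35 chr11:101448409-101448437 (plus strand) and Ifit2 chr19:34550444-34550471 (plus strand). Counted in bases from the start site, the motif begins at −90 in Irf1, −5 in Ifnar1, −214 in Ifnar2, −73 in Isg20, 7 in Ifi35 and −241 in Ifit2. A match of letters is a description and not a binding site, and no match means only that these letters are not in this window.

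The ISRE was searched on both strands as GAAA, any 2 bases (NN) and GAAA again, which on the other strand reads TTTC, NN and TTTC. It was found for 12 of the 35 members (34.3%), against 3.99% of all genes and 3.44% of all promoters. Of them 6 were lower (of 14 lower members with a promoter), 6 did not pass (of 19) and 0 were higher (of 2). For this motif, too, the split by call was not counted over all genes. In only 1 member promoter, that of Ifitm3, did a GAS and an ISRE match overlap. First come 5 members that were lower on the KO-labelled arrays, then 3 that did not pass, with all matches in capitals.
Ifit1: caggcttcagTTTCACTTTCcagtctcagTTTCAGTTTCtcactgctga
Ifit3: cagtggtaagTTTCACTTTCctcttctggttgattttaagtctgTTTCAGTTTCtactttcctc
Rsad2: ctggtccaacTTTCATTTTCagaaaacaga
Eif2ak2: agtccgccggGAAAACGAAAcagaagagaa
Ifih1: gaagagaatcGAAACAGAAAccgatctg
Ddx58: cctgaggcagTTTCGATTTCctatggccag
Stat2: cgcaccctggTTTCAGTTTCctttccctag
Oas3: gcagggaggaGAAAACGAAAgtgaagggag
In GRCm38.p6 they lie at Ifit1 chr19:34640775-34640823 (plus strand), Ifit3 chr19:34583363-34583426 (plus strand), Rsad2 chr12:26456553-26456582 (minus strand), Eif2ak2 chr17:78882535-78882564 (minus strand), Ifih1 chr2:62646206-62646233 (minus strand), Ddx58 chr4:40239804-40239833 (minus strand), Stat2 chr10:128270266-128270295 (plus strand) and Oas3 chr5:120777715-120777744 (minus strand). From the start site the first match begins at −104 in Ifit1 and at −156 in Ifit3, each with a second match at −85 and −122. The single matches begin at −120 in Rsad2, 18 in Eif2ak2, 32 in Ifih1, 2 in Ddx58, −222 in Stat2 and −75 in Oas3.

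Of the 27 measured effector genes, 8 were lower on the KO-labelled arrays (29.6%), 2 were higher (7.41%) and 17 did not pass, against 19.2% lower and 22.6% higher of all genes. Their median log2 fold change was −0.09, against 0.02 over all genes. The means of 14 of the 27 were at or below the median of all probe sets under both labels.

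Ifit2 had the largest decrease of all 44 genes. The IFIT proteins bind viral RNA and hold back its translation. Ifit2 had log2 values of 4.34, 4.18 and 4.22 on the KO-labelled arrays, against 7.99, 8.19 and 8.14 on the WT-labelled arrays. The KO-labelled arrays were at the level of nonspecific signal and the WT-labelled arrays near 8, with a log2 fold change of −3.86 (SE 0.0834, limma adjusted p = 1.2e-06). That is 14.5-fold lower signal under the KO label. Its neighbours on chromosome 19, Ifit3 and Ifit1, were lower as well. Ifit3 had 6.16, 6.06 and 6.55 on the KO-labelled arrays, against 7.06, 6.97 and 7.54 on the WT-labelled arrays, a log2 fold change of −0.94 (SE 0.192, limma adjusted p = 0.0083). Ifit1 had a log2 fold change of −1.46 (limma adjusted p = 0.00052), with means of 4.25 on the KO-labelled and 5.70 on the WT-labelled arrays, both at or below the median of all probe sets.

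Isg20, Ifi35 and Eif2ak2 were the other effectors with large decreases. Isg20 encodes an exonuclease that degrades viral RNA, and had log2 values of 6.30, 6.59 and 5.75 on the KO-labelled arrays, against 8.69, 8.80 and 9.22 on the WT-labelled arrays. Its groups were over 2 log2 units apart, and the log2 fold change was −2.69 (SE 0.241, limma adjusted p = 0.00024). Ifi35, whose product forms a complex with NMI, had 6.13, 6.16 and 5.87 on the KO-labelled arrays, against 7.95, 8.19 and 8.42 on the WT-labelled arrays. The log2 fold change was −2.13 (SE 0.142, limma adjusted p = 7.1e-05). Eif2ak2 encodes PKR, which phosphorylates eIF2α when it binds double-stranded RNA. Its values were 5.53, 4.75 and 5.70 on the KO-labelled arrays, against 6.91, 6.91 and 7.54 on the WT-labelled arrays. KO replicate 3 was the lowest array and WT replicate 5 the highest, and the log2 fold change was −1.80 (SE 0.292, limma adjusted p = 0.0031).

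Rsad2 was a decrease with a wide spread. It encodes viperin, an antiviral radical SAM enzyme. Its most variable probe set had 5.64, 5.57 and 5.66 on the KO-labelled arrays, against 6.32, 6.63 and 7.69 on the WT-labelled arrays, a gene singled out for its spread after its values were seen. The KO-labelled arrays lay close together and WT replicate 5 far above the other arrays, and the log2 fold change was −1.25 (SE 0.336, limma adjusted p = 0.024). The call was lost when any KO-labelled array was left out (adjusted p = 0.061 to 0.063), and within replicates 1 and 5 the value was −1.35 with an adjusted p of 0.11. The other 2 probe sets gave −0.53 and −0.25 and did not pass (limma adjusted p = 0.08 and 0.084 over all probe sets). Cmpk2, a mitochondrial nucleotide kinase gene next to Rsad2 on chromosome 12, had a log2 fold change of 0.05 and did not pass.

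Of the 3 Ifitm genes, neighbours on chromosome 7, Ifitm1 was higher, Ifitm3 was lower and Ifitm2 did not pass. They encode small membrane proteins that restrict viral entry, and in the mouse Ifitm1 and Ifitm3 are also known as genes of early germ cells. Ifitm1 had log2 values of 10.51, 10.63 and 11.11 on the KO-labelled arrays, against 5.63, 5.71 and 5.43 on the WT-labelled arrays. No other member rose as much. The log2 fold change was 5.16 (SE 0.17, limma adjusted p = 4.5e-06), or 35.8-fold higher under the KO label. Ifitm2 had 11.52, 11.36 and 11.57 on the KO-labelled arrays, against 11.39, 11.76 and 11.57 on the WT-labelled arrays, and these groups overlapped, with a log2 fold change of −0.09 and a 95% interval of −0.37 to 0.19. Ifitm3 had 11.20, 11.27 and 11.46 on the KO-labelled arrays, against 11.61, 11.71 and 11.81 on the WT-labelled arrays. The groups did not overlap and the log2 fold change was −0.40 (limma adjusted p = 0.016), which no longer passed without KO replicate 1 (−0.35, limma adjusted p = 0.054), when WT replicate 5 was left out (−0.35, 0.051) or within replicates 1 and 5 (−0.38, adjusted p = 0.11).

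The promoters of the 3 Ifitm genes are shown whole, because of these neighbours 1 was higher, 1 was lower and 1 did not pass. ISRE matches on either strand are in capitals.
Ifitm1: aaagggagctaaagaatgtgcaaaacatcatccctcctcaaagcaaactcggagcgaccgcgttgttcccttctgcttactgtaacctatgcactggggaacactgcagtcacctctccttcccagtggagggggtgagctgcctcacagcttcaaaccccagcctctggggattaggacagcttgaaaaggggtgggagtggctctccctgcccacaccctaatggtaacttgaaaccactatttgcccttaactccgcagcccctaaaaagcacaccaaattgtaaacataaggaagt
Ifitm2: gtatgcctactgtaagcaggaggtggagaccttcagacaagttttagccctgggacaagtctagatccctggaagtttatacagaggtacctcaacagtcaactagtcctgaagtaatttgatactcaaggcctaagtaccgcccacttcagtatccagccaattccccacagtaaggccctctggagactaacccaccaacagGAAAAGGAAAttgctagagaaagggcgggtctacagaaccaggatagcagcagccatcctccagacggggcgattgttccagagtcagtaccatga
Ifitm3: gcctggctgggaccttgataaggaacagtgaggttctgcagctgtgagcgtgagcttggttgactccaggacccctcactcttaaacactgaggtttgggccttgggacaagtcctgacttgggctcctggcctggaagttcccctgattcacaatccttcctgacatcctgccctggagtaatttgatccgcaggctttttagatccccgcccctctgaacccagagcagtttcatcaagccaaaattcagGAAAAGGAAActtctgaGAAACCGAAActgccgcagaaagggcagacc
They are, in GRCm38.p6, Ifitm1 chr7:140967826-140968125 (plus strand), Ifitm2 chr7:140955912-140956211 (minus strand) and Ifitm3 chr7:141010695-141010994 (minus strand). Ifitm1 held 0 matches in this window, Ifitm2 held 1 at −46 and Ifitm3 held 2 at 2 and 19 from the start site. The absence of these letters from the Ifitm1 window says nothing of sites outside it.

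Trim25 was the other effector that was higher on the KO-labelled arrays. It encodes an E3 ubiquitin ligase that acts with RIG-I. Its log2 values were 10.02, 10.04 and 10.32 on the KO-labelled arrays, against 8.95, 8.84 and 8.91 on the WT-labelled arrays, with groups over 1 log2 unit apart. The log2 fold change was 1.22 (SE 0.101, limma adjusted p = 0.00017), and it passed under every alternative run, as did that of Ifitm1.

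The remaining 17 effectors did not pass, and several classical interferon-stimulated genes were near nonspecific signal under both labels. Usp18, the protease that removes ISG15 from proteins, lay between 4.01 and 4.20 on all 6 arrays. The GTPase genes Mx1 and Mx2 had log2 fold changes of −0.04 and 0.12, the guanylate-binding protein genes Gbp2 and Gbp3 −0.26 and −0.12. The OAS genes, whose products activate RNase L or bind RNA, had 0.22 (Oas2), 0.15 (Oas3), −0.05 (Oasl1) and −0.45 (Oasl2). For Oasl2 the adjusted p was 0.07, and over the 14 refits that held it, it was 0.01 to 0.18 and under 0.05 in 6. Parp9 and Dtx3l, which encode partners in a ubiquitin ligase complex, and Parp14, all neighbours on chromosome 16, had log2 fold changes of −0.46, 0.07 and 0.02. Samd9l, a translation regulator, had −0.33 (limma adjusted p = 0.071). Gbp3 and Samd9l each passed as lower in 2 of 14 refits, and Oas2 as higher in 1 of 15.

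For Adar the call depended on the probe set, and for Xaf1 the difference rested on 1 array. Adar, the RNA-editing enzyme, had a log2 fold change of 0.36 (limma adjusted p = 0.17) at its most variable probe set, but at its brightest one 8.59, 8.83 and 8.88 on the KO-labelled arrays, against 8.29, 8.29 and 8.40 on the WT-labelled arrays, a log2 fold change of 0.44 that passed (adjusted p = 0.011 from limma with the brightest probe set of each gene, and 0.011 to 0.4 over the 14 refits that held the gene). Xaf1, a proapoptotic interferon-stimulated gene, had 4.74, 4.85 and 7.10 on the KO-labelled arrays, against 4.45, 4.68 and 4.53 on the WT-labelled arrays. KO replicate 5 stood apart from the other 5 arrays, at a second probe set too (6.35 against 4.93 and 5.16 on the other KO-labelled arrays), and the log2 fold change of 1.01 (limma adjusted p = 0.25) did not pass.

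**Figure D3:**
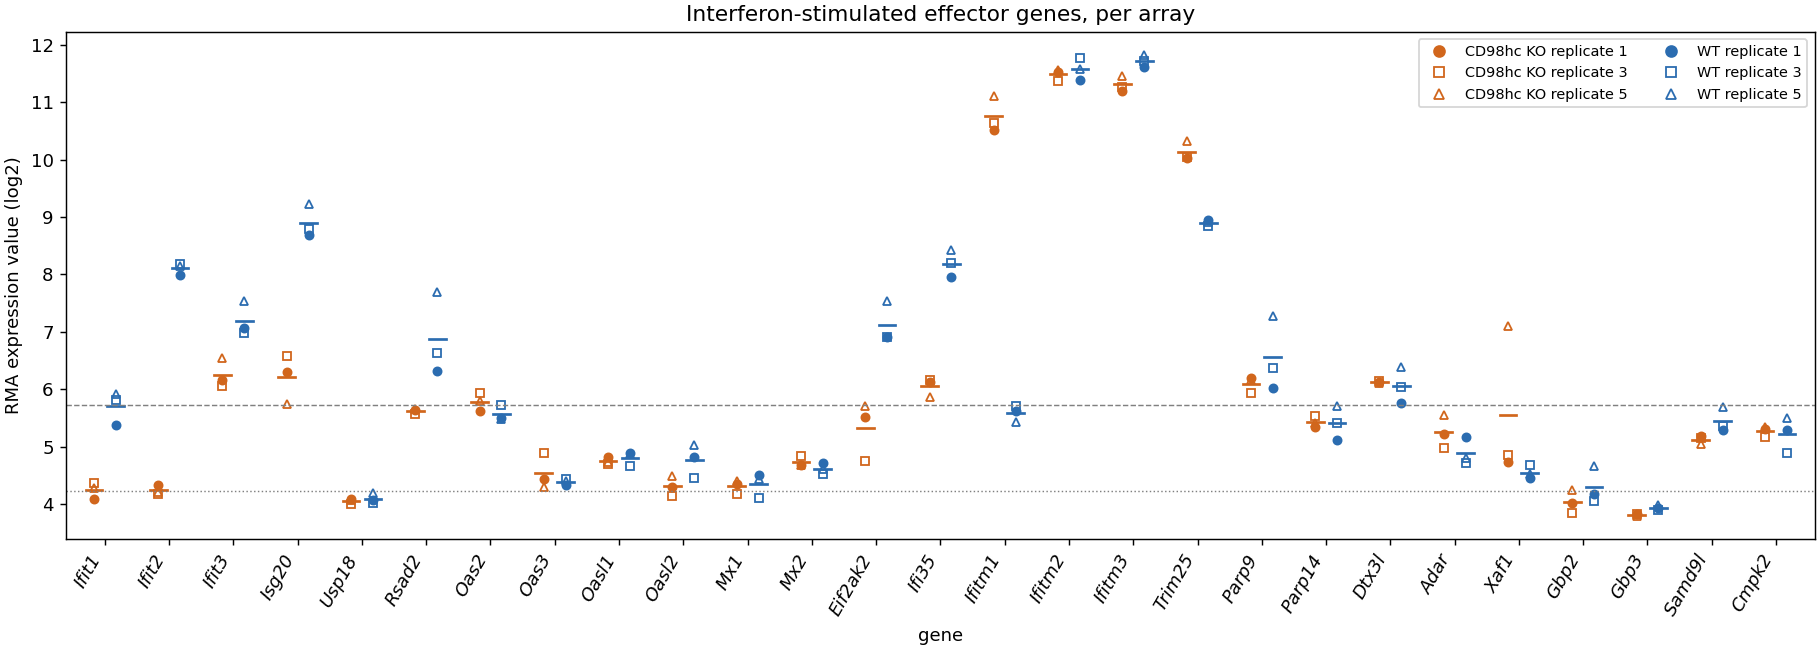
RMA log2 expression value (vertical axis) of the 27 measured effector genes on each array, with the 3 CD98hc KO arrays in orange left of the 3 WT arrays in blue, symbols for replicates and bars for group means. Ifit2, Isg20, Ifi35 and Eif2ak2 are lower and Ifitm1 and Trim25 higher on the KO-labelled arrays, and many genes lie between the lines for nonspecific signal (dotted, 4.23) and for all probe sets (dashed, 5.73) under both labels.

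Within a group, many members were highest on the same array. WT replicate 5 was the highest WT-labelled array for 28 of the 44 members (63.6%), against 32.7% of all genes. KO replicate 5 was the highest KO-labelled array for 19 (43.2%), against 26.1% of all genes. On WT replicate 5, 11 members (25.0%) exceeded the mean of the other WT-labelled arrays by over 0.5, and 0 fell below it by as much, where all genes gave 4.97% and 3.37%. The 11 were Rsad2 (1.22), Parp9 (1.09), Irf1 (0.93), Stat2 (0.71), Sting1 (0.71), Ddx58 (0.71), Eif2ak2 (0.63), Irf9 (0.61), Tlr2 (0.60), Gbp2 (0.55) and Ifit3 (0.52). They include members that were lower, and members that did not pass, between the labels.

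This pattern was seen after the values were examined and was not tested. The median of the 10 fibroblast markers was also highest on WT replicate 5, at 9.85 against 8.81 and 9.08 on WT replicates 1 and 3. The part of these genes in the pattern was not tested. Ifnb1, the gene of IFN-β, had 5.05, 4.94 and 4.97 on the KO-labelled arrays, against 4.97, 5.00 and 5.04 on the WT-labelled arrays. No array stood apart for this gene, whose means lay below the median of all probe sets under both labels. Without WT replicate 5, 4 members were higher on the KO-labelled arrays instead of 2, and 14 were lower instead of 16. Leaving out any 1 array gave 13 to 17 lower members, and the shares of all genes in these refits were not counted.

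**Figure D4:**
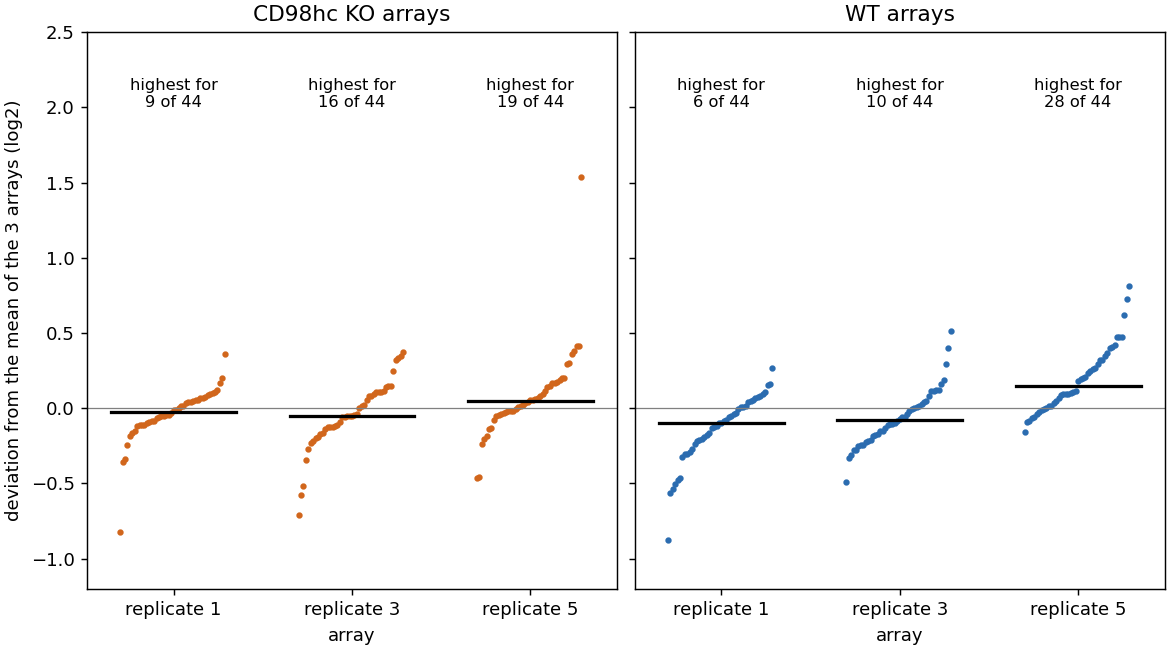
Deviation of each of the 44 members from the mean of its group's 3 arrays (log2, vertical axis), 1 point a gene sorted within each array, with CD98hc KO arrays on the left, WT arrays on the right and a black bar at the median. WT replicate 5 was the highest WT array for 28 of 44 members, and the highest KO point is Xaf1 on replicate 5.

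Further genes of the pathway were counted from a list of 41 genes of ligands, kinases, adaptors, factors, inhibitors and restriction factors, of which 35 were measured. Of these 15 were lower on the KO-labelled arrays (42.9%) and 3 higher (8.57%), against 19.2% and 22.6% of all genes, with a median log2 fold change of −0.23. This list, too, was chosen with earlier results of these data known. The 4 largest changes belonged to Zc3hav1, Cgas, Herc6 and Socs3. Zc3hav1, which encodes the zinc-finger antiviral protein, had 5.64, 6.01 and 7.22 on the KO-labelled arrays, against 9.64, 10.09 and 9.79 on the WT-labelled arrays. The groups were over 2 log2 units apart, with KO replicate 5 the highest of its group, and the log2 fold change was −3.56 (SE 0.397, limma adjusted p = 0.0006). Cgas, the DNA sensor upstream of STING, had 5.24, 5.09 and 4.98 on the KO-labelled arrays, against 7.83, 7.95 and 7.49 on the WT-labelled arrays, a log2 fold change of −2.65 (SE 0.138, limma adjusted p = 2.7e-05). Herc6, the ligase that attaches ISG15 in the mouse, had 4.49, 4.40 and 4.27 on the KO-labelled arrays, against 6.81, 6.52 and 7.02 on the WT-labelled arrays, a log2 fold change of −2.40 (SE 0.139, limma adjusted p = 4.0e-05). Each of these 3 genes was lower on every KO-labelled array than on any WT-labelled array, against 23.4% of all genes. They were named for their large changes, so this gap largely follows from the choice.

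The fourth, Socs3, is an inhibitor of cytokine signalling that is induced by STAT3. It had 7.90, 8.46 and 9.50 on the KO-labelled arrays, against 6.21, 6.25 and 6.62 on the WT-labelled arrays. Its groups did not overlap, KO replicate 5 was the highest array, and the log2 fold change was 2.26 (SE 0.391, limma adjusted p = 0.0041). The receptor kinases, named here after their values were seen, went different ways. Jak1 had a log2 fold change of −1.31 (limma adjusted p = 2.8e-05) and Jak2 −1.75 (limma adjusted p = 0.00017), both lower, while Tyk2 was higher at 0.95 (limma adjusted p = 0.046) with overlapping groups. The ligand genes Ifnb1, Ifna1, Ifna2, Ifna4 and Ifng had log2 fold changes of −0.02, 0.28, −0.07, −0.07 and −0.11, and none passed. All but Ifna1 had means below the median of all probe sets under both labels, where a change may not show. The Ifna1 probe set is of a type that can cross-hybridise (an x_at set).

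**Figure D5:**
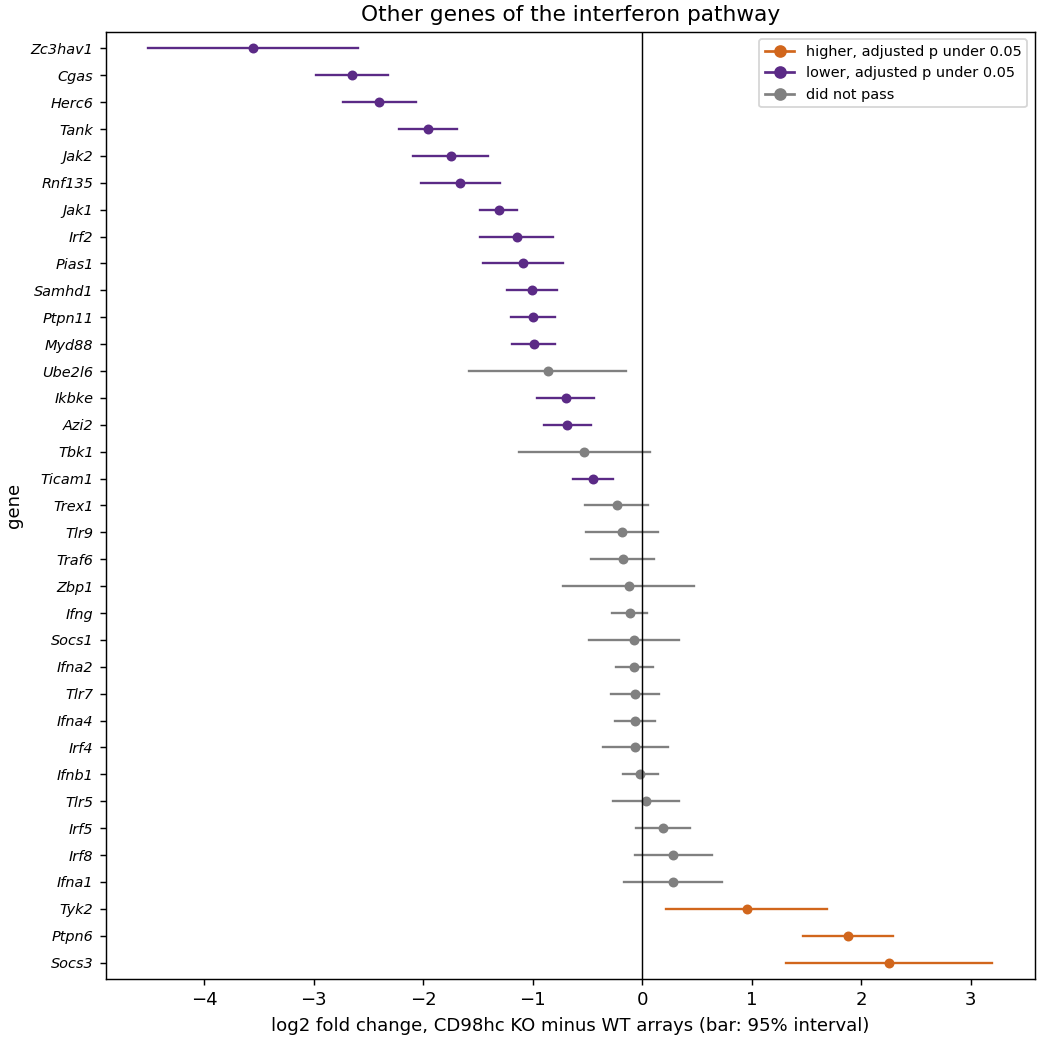
Log2 fold change (CD98hc KO minus WT arrays, horizontal axis) of the 35 measured further genes of the pathway, one gene a row, with bars for the 95% interval from limma. Of the 18 genes that passed, 15 lie left of 0, led by Zc3hav1 (−3.56), Cgas (−2.65) and Herc6 (−2.40), and Tyk2, Ptpn6 and Socs3 lie right of it.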

How the data were processed

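Total RNA was amplified and hybridised to Affymetrix mouse expression arrays. The deposited values are log2 signals of probe sets, obtained by the authors with RMA, which normalises between arrays and summarises the probes (affyPLM per the paper's methods, no version given). Arrays were grouped by their titles. Of 45141 probe sets, 28898 had 1 gene symbol, 551 several and 15692 were unnamed here. Array medians were 5.62 to 5.71. The 104 control probe sets were left out of the fit.

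A linear model was fitted to all other probe sets with limma 3.58.1 in R 4.3.3 (lmFit, then eBayes), CD98hc KO minus WT. For each of 17097 genes the most variable probe set was used, the rule of the paper's methods, and p-values were adjusted over all genes by Benjamini-Hochberg. The paper's covariate, the scan batch, has no value per array in the labels, and the model had no covariate. Coordinates are those of the RefSeq promoter table. On simulated data for this comparison over 17097 genes, 92 of 100 genes changed by 1.5 and 100 of 100 changed by 3 were called, with 14 of 16897 unchanged genes called. Only 200 genes were changed there, whereas 41.9% of all genes passed in the data. The simulated noise was independent between arrays, with no deviation shared by a replicate number. These rates therefore need not hold for the data.

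The members and gene lists were chosen with earlier results of these data known. Values per array are given for members with a mean over 7 in either group or a log2 fold change beyond 2, of the further pathway genes for the 4 largest changes, and, chosen after their values were seen, for Rsad2, Xaf1, Ifnb1, Ptprc, and a second probe set of Ifnar2 and Adar. Precision rests on 3 arrays a group. Alternatives changed 1 choice at a time: a replicate block, the replicate 3 arrays, the probe set of a gene, the normalisation, dim genes, the variance model, the fold limit and each array left out. Motifs were searched and plots made in Python 3.11.15 (matplotlib 3.10.9).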

Additional observations from a re-analysis of the deposited data

How the results depend on the processing

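Of the 18 members that passed, 15 passed in the same direction in each of the 14 or 15 refits that held them, and Ifnar1, Rsad2 and Ifitm3 did not, with 0 changes of sign. Of the 44 members, 17 were lower with the replicate number as a block and 18 with replicate 3 as a covariate (3 higher). Lower members numbered 15 within replicates 1 and 5, 19 after median centring, 16 after quantile normalisation and 12 when a 2-fold change was required. Without dim genes 12 of the 26 members left were lower. Apart from the 2-fold limit, shares of all genes under these settings were not counted here. Leaving out Sting1, an alternative added after seeing the data, gave 15 lower members. The block ended the call of Ifnar1 (adjusted p = 0.071) and made calls of Dhx58, Oasl2 and Irf9. With the block, 1 of the sensors, receptors and factors was higher (Irf9). Without dim genes, 5 of the 13 sensors, receptors and factors left were lower. Their median log2 fold change was −0.23 and that of the effectors −0.46. With 1 array left out, 13 to 17 members were lower and 2 to 4 higher, of the effectors 6 to 9 lower and 2 higher, and of the sensors, receptors and factors 7 to 8 lower and 0 to 2 higher. The medians were −0.14 to −0.03 for the effectors and −0.45 to −0.26 for the others. Members that did not pass changed sign as follows. Within replicates 1 and 5 the values were −0.0030 (Oas3), 0.0650 (Ifitm2), −0.0284 (Parp14) and −0.0666 (Cmpk2), and with the brightest probe set 0.0580 (Dhx58). With the mean of probe sets Parp14 had −0.0026. After quantile normalisation Parp14 had −0.0469 and Cmpk2 −0.0139, and after median centring Parp14, Dtx3l and Cmpk2 had −0.0556, −0.0114 and −0.0311. With 1 array left out the ranges were −0.440 to 0.0237 (Mavs), −0.266 to 0.411 (Stat2), −0.0742 to 0.0158 (Usp18), −0.0249 to 0.270 (Oas3), −0.160 to 0.0393 (Mx1), −0.185 to 0.0040 (Ifitm2), −0.131 to 0.168 (Parp14), −0.0863 to 0.225 (Dtx3l) and −0.121 to 0.179 (Cmpk2). The cause of these changes was not tested. Deviations from the group means correlated at 0.06, 0.56 and 0.15 between arrays numbered 1, 3 and 5, and KO replicate 1 correlated best with WT replicate 5 (0.31), so the replicate numbers were not taken to pair the arrays. The replicate 3 arrays stood together, at the highest correlation of the 9 pairs, and all 9 hybridisation controls were lower on both of them, by a mean of −1.25. Signals at or below the median of all probe sets under both labels limit 18 of the 44 members.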

Other observations

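A further list of 30 interferon-stimulated genes was written after the results above were known, so it supports nothing, and 26 of its genes were measured. Of these 11 were lower and 3 higher on the KO-labelled arrays at an adjusted p under 0.05 from limma, against 19.2% and 22.6% of all genes. Their median log2 fold change was −0.19, and 13 had means at or below the median of all probe sets under both labels. Ifi27, which encodes a mitochondrial interferon-induced protein, had log2 values of 5.42, 5.62 and 5.44 on the KO-labelled arrays, against 9.54, 9.89 and 11.005 on the WT-labelled arrays, and a log2 fold change of −4.65 (SE 0.358, limma adjusted p = 0.00013). Ifi204, a gene of the DNA-binding p200 family, had 3.52, 3.55 and 3.61 on the KO-labelled arrays, against 7.35, 7.01 and 7.73 on the WT-labelled arrays, with −3.80 (SE 0.176, limma adjusted p = 1.6e-05). Rtp4 had 4.39, 4.38 and 4.78 on the KO-labelled arrays, against 6.40, 6.41 and 7.29 on the WT-labelled arrays, with −2.18 (SE 0.264, limma adjusted p = 0.00086). For these 3 genes WT replicate 5 was again the highest array. Pml, the organiser of PML nuclear bodies, ran the other way with 9.18, 9.10 and 8.69 on the KO-labelled arrays, against 6.09, 6.70 and 6.36 on the WT-labelled arrays, and 2.61 (SE 0.193, limma adjusted p = 0.00011).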
